A study of Mus musculus with 6 samples.

Results

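The transcription regulators that direct the Schwann cell lineage were followed in cultured sympathetic ganglion cells with and without Slit2. The 10 genes were Sox10, Sox2, Egr2, Nab1, Nab2, Pou3f1, Jun, Zeb2, Yy1 and Tfap2a, chosen by gene name from the deposited table of read counts. All 10 were among the 20173 genes of the table, and all 10 were among the 12152 genes with enough reads to test (a CPM, the count scaled to the library total, of 1 or more in 3 or more libraries). RNA-Seq covered 6 cultures of sympathetic chains, which were taken from male mice of 3 weeks of age and kept in culture for 4 to 5 days. Of these, 3 were labelled SLIT2f/f (Slit2fl/fl, floxed alleles) and 3 SLIT2-knockout (Slit2th, floxed alleles deleted by Cre from the Th promoter, which is active in cells that make tyrosine hydroxylase). The labels give the tissue as sympathetic ganglion and the cell type as neuron, and they do not say whether the libraries of a group came from separate mice, so p-values measure the spread between these samples, which may be technical.

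Schwann cells and satellite glia of peripheral ganglia descend from the neural crest. SOX10 is kept through the whole lineage and is needed for glial identity, TFAP2A acts in the crest and in Schwann cell precursors, and SOX2 and JUN are associated with the immature and the injury (repair) state, in which myelin genes are held down. Myelination starts when SOX10 and POU3F1 (Oct6) together switch on EGR2 (Krox20), which drives myelin and lipid genes with its partners NAB1 and NAB2, while ZEB2 represses inhibitors of maturation, Sox2 among them, and YY1 takes part in the induction of Egr2. The comparison asked how the levels of these regulators stood in Slit2th beside Slit2fl/fl cultures.

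The total counts were 1533367 to 3155406 in Slit2fl/fl and 1255939 to 1999485 in Slit2th, so that 3 counts, taken as the floor of detection, correspond to 0.951 to 2.39 CPM, for counting error only. Slit2, the deleted gene, had a level of 47.8 ± 6.33 CPM in the Slit2fl/fl and 13.9 ± 2.12 CPM in the Slit2th libraries (SD, n = 3 each), without overlap. Defining markers of the labelled cell type were absent, and the study's isolation method speaks of dorsal root neurons. Th had 0 counts in every library, Snap25 had 1 count in all, and 7 of the 29 sympathetic neuron markers were at 0 throughout, whereas Tubb3 (75.0 to 290.1 CPM), Uchl1 (36.9 to 236 CPM) and Stmn2 (16.4 to 43.2 CPM), which are less specific to sympathetic neurons, were detected in every library. Summed, the 22 glia markers (Sox10 among them) gave 14751 to 26741 CPM and the sympathetic neuron markers 187 to 590 CPM. Markers of sensory neurons, the neurons of dorsal root ganglia, were also scarce. Of 12, 6 were at 0 throughout, and they summed to 31.1 to 63.8 CPM. Whether cells of the lineage became fewer or held less RNA each cannot be told apart in such bulk samples. Replicate 1 of each group stood apart: Pearson's correlation across genes, on log2 CPM, was 0.841 and 0.863 between Slit2fl/fl replicate 1 and its group, against 0.937 between the other two, and 0.867 and 0.869 against 0.964 in Slit2th. Values without these libraries are therefore given beside the results. The libraries did not sort by group in this measure. Slit2fl/fl replicate 2 correlated at 0.947 and 0.944 with Slit2th replicates 2 and 3, above its 0.937 with Slit2fl/fl replicate 3. For Slit2fl/fl replicate 3 the values with the same Slit2th libraries were 0.917 and 0.915. Across all tested genes 0 passed an adjusted p of 0.05 in edgeR's quasi-likelihood test, in which the smallest adjusted p was 0.357, and 1309 had an unadjusted p under 0.05. By other tools, DESeq2 called 31 genes and edgeR's exact test 16 genes after adjustment, and none of them was among the 10 regulators.

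Promoter stretches are shown for Sox2 and Zeb2, the pair that was higher in every Slit2th library, for Nab2, which had the lowest fold change, and for Jun, whose promoter holds a match to its own family's motif. The sequences are RefSeq promoter windows of GRCm38.p6, read 5′ to 3′ on the gene's strand, in which bases inside annotated exons are left out, and windows were found for 8 of the 10 genes (not for Sox10 and Pou3f1). Capitals mark a match to a searched motif, and RefSeq starts can differ from the gene ends given further on, which are those of GENCODE.
Sox2, chr3:34649745-34649994, plus strand, the 250 bases before the RefSeq start: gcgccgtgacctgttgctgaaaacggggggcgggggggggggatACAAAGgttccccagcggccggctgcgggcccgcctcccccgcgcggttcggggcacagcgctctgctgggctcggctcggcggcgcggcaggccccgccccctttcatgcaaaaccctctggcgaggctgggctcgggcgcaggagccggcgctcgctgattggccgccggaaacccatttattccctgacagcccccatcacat
Zeb2, chr2:45117443-45117692, minus strand, the 250 bases before the most upstream RefSeq start: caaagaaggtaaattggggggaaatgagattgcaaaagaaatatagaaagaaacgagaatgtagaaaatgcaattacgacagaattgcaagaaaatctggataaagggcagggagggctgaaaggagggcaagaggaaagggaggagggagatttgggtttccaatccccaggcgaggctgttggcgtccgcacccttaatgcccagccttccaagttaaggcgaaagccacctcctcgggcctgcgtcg
Nab2, chr10:127666711-127666900, minus strand, bases -197 to -8: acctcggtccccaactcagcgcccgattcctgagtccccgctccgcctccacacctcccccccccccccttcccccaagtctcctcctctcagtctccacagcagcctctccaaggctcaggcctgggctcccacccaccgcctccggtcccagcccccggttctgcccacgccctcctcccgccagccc
Jun, chr4:95052223-95052472, minus strand, the 250 bases before the start: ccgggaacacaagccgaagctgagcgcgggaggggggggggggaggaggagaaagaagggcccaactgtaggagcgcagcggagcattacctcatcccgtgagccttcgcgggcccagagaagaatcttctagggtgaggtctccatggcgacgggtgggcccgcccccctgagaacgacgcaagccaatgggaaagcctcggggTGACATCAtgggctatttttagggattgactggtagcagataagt
On both strands of the 250 bases before each RefSeq start, 6 motifs were searched: ACAAAG for SOX factors, GCGGGGGCG for EGR factors, TGACTCA and TGACATCA for AP-1 (the dimers that JUN forms), GCCNNNGGC for TFAP2 and AAGATGGCG for YY1. Sox2 had ACAAAG at bases -206 to -201, and so did 16.5% of the 32851 promoter windows searched. Jun had TGACATCA at bases -45 to -38, found in 2.93% of windows. In the 250 bases before the Nab2 start and before the Zeb2 start shown, none of the 6 motifs occurred. Of the promoters not shown, Egr2 had GCCNNNGGC (13.7% of windows) at bases -159 to -151 of its first start, Nab1 had GCGGGGGCG (2.57%) at bases -38 to -30, and further starts of Zeb2 had GCCNNNGGC, ACAAAG and 2 copies of TGACTCA (4.46%). No window of Yy1 or Tfap2a had a match, and AAGATGGCG (0.606% of windows) was in none of the regulators' windows. A match of letters is a description of the sequence and not a bound site.

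Compared per length, as TMM-normalized CPM per kilobase of merged exon (GENCODE M21), Sox2 was the most abundant of the regulators with a level of 465 ± 162 (SD, n = 6 libraries), at percentile 99.2 of all tested genes. Sox10 followed at 184 ± 33.2 (percentile 98.0), Jun at 108 ± 21.3 (96.6) and Zeb2 at 52.2 ± 17.7 (93.2). The steps between these 4 were larger than the SD of either gene, although Sox2 was below Sox10 in Slit2fl/fl replicate 1. Yy1 stood at 32.4 ± 5.66 CPM per kilobase, Tfap2a at 25.5 ± 19.7, Egr2 at 22.6 ± 6.04 and Nab1 at 19.7 ± 7.22, and these neighbours did not differ beyond their spread, although Egr2 was above Nab1 in 5 of 6 libraries. Pou3f1 at 8.07 ± 1.62 and Nab2 at 3.42 ± 4.05 closed the order, Nab2 at percentile 48.2, and the steps from Zeb2 to Yy1, from Nab1 to Pou3f1 and from Pou3f1 to Nab2 were again larger than either SD. Single libraries left this order, as Zeb2 was below Yy1 and Pou3f1 below Nab2 in Slit2fl/fl replicate 1, and so did the groups for Tfap2a, whose mean of 39.3 CPM per kilobase in Slit2fl/fl was next to that of Zeb2 (38.6) and whose mean of 11.8 in Slit2th was under those of Egr2 (24.6) and Nab1 (19.6). Sox2, Sox10 and Jun thus had higher levels per length than Egr2, Nab1 and Nab2 in these cultures. Merged exons include those that only some transcripts use, and their length ran from 2057 bases for Sox2 to 19942 bases for Zeb2.

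**Figure D1:**
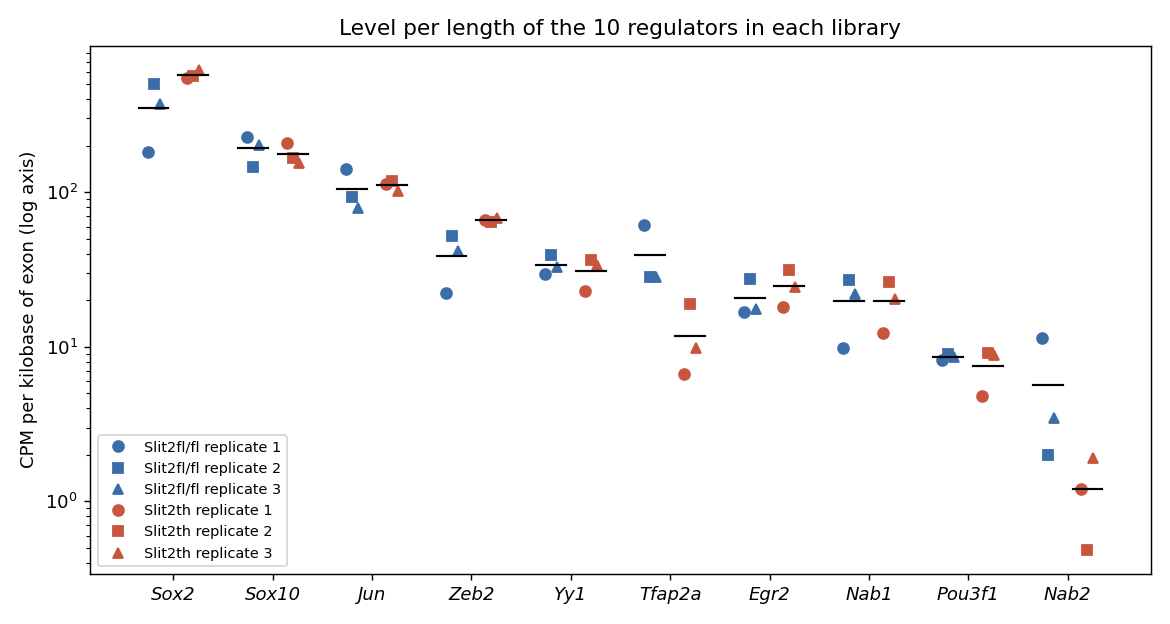
Level of each regulator in each library as TMM-normalized CPM per kilobase of merged exon (log axis), ordered by the mean over 6 libraries, with Slit2fl/fl in blue, Slit2th in red, a marker shape for each replicate number and a black line at each group's mean. Sox2 has the highest mean (465 CPM per kilobase) and Nab2 the lowest (3.42), and the groups are apart for Sox2, Zeb2, Tfap2a and Nab2.

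None of the 10 regulators passed the adjusted threshold. An unadjusted p under 0.05 was found for 2 of 10, Tfap2a and Nab2, both lower in Slit2th, where 10.8% of all tested genes passed in either direction and 6.78% in the lower one. The groups did not overlap for 4 of 10, which 18.5% of all tested genes did. Of these, Tfap2a and Nab2 were lower in every Slit2th library (9.72% of tested genes) and Sox2 and Zeb2 were higher (8.74%). The log2 fold change, Slit2th minus Slit2fl/fl, was negative for 5 and positive for 5 regulators, with a median of -0.058 beside -0.047 over all tested genes.

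**Figure D2:**
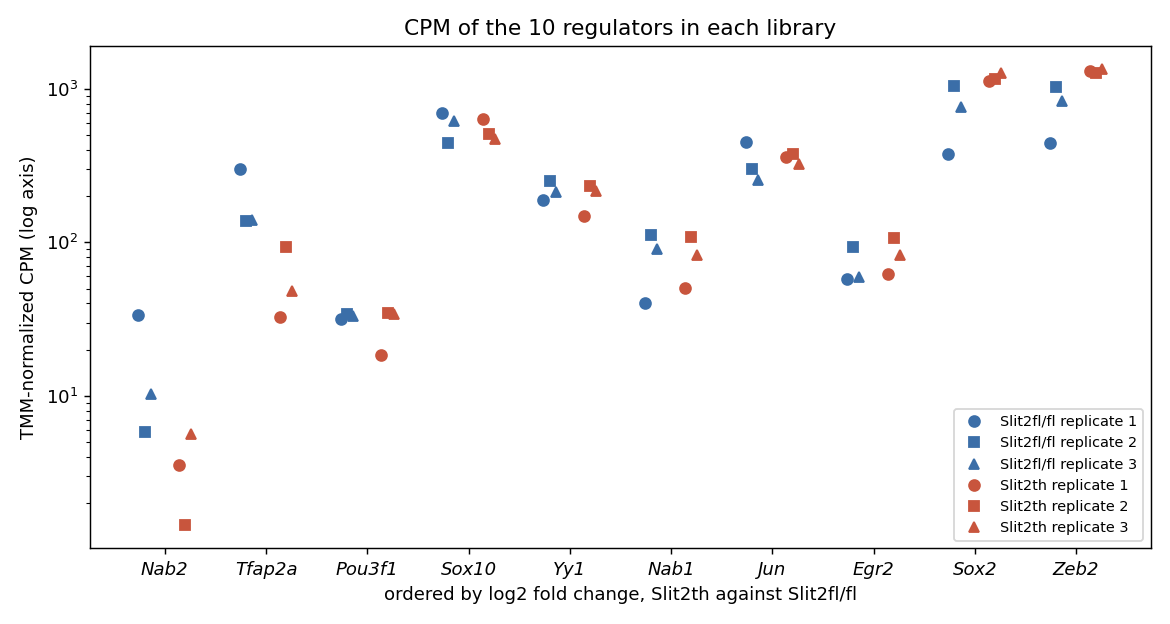
TMM-normalized CPM (log axis) of each regulator in the 3 Slit2fl/fl libraries (blue) and the 3 Slit2th libraries (red), ordered by log2 fold change, with a marker shape for each replicate number. Every red marker lies under every blue one for Nab2 and Tfap2a and above for Sox2 and Zeb2, and circles (replicate 1) lie far from their group for Nab2, Nab1, Sox2, Tfap2a and Zeb2 in blue and for Tfap2a, Nab1 and Pou3f1 in red.

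Among the identity genes, Sox10 differed by less than the spread between replicates, while Tfap2a was lower in all Slit2th libraries. Sox10 (ENSMUSG00000033006, chromosome 15 of GRCm38, 79154908 to 79165240, minus strand, 5 merged exons) stood at 698, 443 and 615 CPM in Slit2fl/fl replicates 1 to 3 and at 633, 505 and 474 CPM in Slit2th replicates 1 to 3. The ranges overlap widely, and the highest and the lowest library were both Slit2fl/fl. The group levels were 585.5 ± 130 and 537 ± 84.1 CPM (SD, n = 3 each). For Sox10 the log2 fold change was -0.12 (standard error 0.33, 95% interval -0.87 to 0.62), with an unadjusted p of 0.716 by edgeR (adjusted p = 0.889), and the two-sided exact permutation test of log2 CPM gave p = 0.80. The interval leaves room for a change of either sign.

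Tfap2a (ENSMUSG00000021359, chromosome 13, 40715302 to 40738376, minus strand, 12 merged exons) stood at 300.4, 138 and 139 CPM in Slit2fl/fl and at 32.7, 92.6 and 48.0 CPM in Slit2th. The highest Slit2th library was below the lowest Slit2fl/fl library, and Slit2fl/fl replicate 1 was far above the rest of its group. The means were 193 ± 93.4 and 57.7 ± 31.1 CPM (SD, n = 3 each). This was a log2 fold change of -1.73 (standard error 0.50, 95% interval -2.86 to -0.60), or 3.32-fold lower, with an unadjusted p of 0.00697 by edgeR (adjusted p = 0.422, rank 159 of all tested genes). The exact permutation test gave 0.10, the smallest p that 3 libraries against 3 allow. Without Slit2fl/fl replicate 1 the log2 fold change was -1.26 (unadjusted p = 0.0229, adjusted p = 0.656), and leaving out both groups' replicate 1 gave -0.99 (unadjusted p = 0.00302, adjusted p = 0.0708 by edgeR). Counted against Sox10 in the same library, the Tfap2a to Sox10 ratio of counts was 0.430, 0.311 and 0.226 in Slit2fl/fl, against 0.0516, 0.183 and 0.101 in Slit2th. Tfap2a thus also stood lower relative to Sox10 in each Slit2th library, a ratio chosen after the values were seen. Antisense genes cover parts of its exons (380 bases for Gm26688, 265 for Gm47061 and 73 for Gm47067), and the strand setting of the counting is not given in the sources used here. Gm26688 had 7 counts in Slit2fl/fl replicate 1 and 1 or none elsewhere, and Gm47061 had 9 counts in Slit2th replicate 1 and 3 or fewer elsewhere.

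Pou3f1 (ENSMUSG00000090125, chromosome 4, 124656807 to 124660655, plus strand, 1 exon), the POU factor of the promyelinating stage, was even across 5 libraries. It stood at 31.7, 34.4 and 33.0 CPM in Slit2fl/fl and at 18.5, 34.8 and 33.9 CPM in Slit2th, so that only Slit2th replicate 1 was low, with 21 counts. The group levels of 33.0 ± 1.33 and 29.1 ± 9.14 CPM (SD, n = 3 each) overlapped. Its log2 fold change was -0.17 (standard error 0.39, 95% interval -1.04 to 0.70, adjusted p = 0.865 by edgeR), and the exact permutation test gave p = 0.90. Without Slit2th replicate 1 the sign turned, to 0.063. The antisense gene Gm2164, not in the table, shares 330 bases of its exon.

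Sox2 and Zeb2 were the regulators with the highest fold changes. Sox2 (ENSMUSG00000074637, chromosome 3, 34650405 to 34652461, plus strand, 1 exon) stood at 375, 1038 and 761 CPM in Slit2fl/fl and at 1123, 1167 and 1272 CPM in Slit2th. All Slit2th libraries were above all of Slit2fl/fl, but Slit2fl/fl replicate 2 was only just below, and Slit2fl/fl replicate 1 was the low one. The means were 725 ± 333 and 1187 ± 76.8 CPM (SD, n = 3 each). The log2 fold change of 0.71 (standard error 0.41, 95% interval -0.21 to 1.64, 1.64-fold) had an unadjusted p of 0.115 by edgeR (adjusted p = 0.524), and the exact permutation test gave 0.10. Without Slit2fl/fl replicate 1 it was 0.40 (unadjusted p = 0.102, adjusted p = 0.694), and leaving out both groups' replicate 1 gave 0.42 (unadjusted p = 0.0410, adjusted p = 0.261 by edgeR). Sox2 lies within an intron of Sox2ot on the same strand, with no shared exon bases, and Sox2ot had overlapping groups at 383 ± 102 and 423 ± 19.7 CPM.

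Zeb2 (ENSMUSG00000026872, chromosome 2, 44983632 to 45117395, minus strand, 18 merged exons) encodes a zinc finger repressor needed for Schwann cells to mature. It stood at 444, 1032 and 831 CPM in Slit2fl/fl and at 1315, 1274 and 1351 CPM in Slit2th. The 3 Slit2th libraries lay close together and above all of Slit2fl/fl, in which replicate 1 was again the low one. The means were 769 ± 299 and 1313 ± 38.2 CPM (SD, n = 3 each). The log2 fold change of 0.77 (standard error 0.38, 95% interval -0.084 to 1.63, 1.71-fold) had an unadjusted p of 0.0719 by edgeR (adjusted p = 0.485), with an exact permutation p of 0.10. It was 0.50 without Slit2fl/fl replicate 1 (unadjusted p = 0.0374, adjusted p = 0.660) and 0.48 without replicate 1 of both groups (unadjusted p = 0.0167, adjusted p = 0.174 by edgeR). The antisense gene Zeb2os shares 653 of its exon bases and had 5 to 32 counts a library, against at least 1387 for Zeb2.

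The ratio of Sox2 to Zeb2 counts stayed between 0.844 and 1.01 in all 6 libraries, although the levels of both genes ranged widely, which is a description of a pair chosen after its values were seen. The Sox2 to Sox10 ratio was 0.537, 2.34 and 1.24 in Slit2fl/fl, against 1.77, 2.31 and 2.68 in Slit2th. Sox2 thus exceeded Sox10 in counts in every library but Slit2fl/fl replicate 1, and the groups overlapped. ZEB2 is also made by macrophages and fibroblasts. The macrophage markers summed to 134, 77.8 and 42.1 CPM in Slit2fl/fl and to 721, 142 and 169 CPM in Slit2th. Of the 18 markers, 13 passed the filter and were tested, 12 of them higher, and Cd74 was at 0 throughout. The fibroblast markers summed to 9198 to 16424 CPM and 12086 to 13229 CPM, with 17 of 22 higher and with overlapping sums. The macrophage sums, like Zeb2, were higher in every Slit2th library than in any of Slit2fl/fl. Within Slit2fl/fl both sums were highest in replicate 1, where Zeb2 was lowest. In Slit2th the macrophage sum was far above the rest in replicate 1, where Zeb2 lay between the other Slit2th libraries. The part of macrophages and fibroblasts in the Zeb2 level was not tested.

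Jun (ENSMUSG00000052684, chromosome 4, 95049034 to 95052222, minus strand, 1 exon), the AP-1 subunit of the repair state, had overlapping groups. It stood at 449.6, 298 and 254 CPM in Slit2fl/fl and at 361, 375 and 323 CPM in Slit2th, all Slit2th libraries lying inside the Slit2fl/fl range. The means were 334 ± 103 and 353 ± 26.8 CPM (SD, n = 3 each), and the log2 fold change was 0.079 (standard error 0.34, 95% interval -0.68 to 0.84). By edgeR the adjusted p was 0.933, and the exact permutation test gave p = 0.60. Its antisense neighbour Junos, which shares 232 exon bases, had 1 to 3 counts a library.

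In the myelination group, Egr2 and Nab1 differed by less than the spread between replicates, and Nab2 was lower in Slit2th. Egr2 (ENSMUSG00000037868, chromosome 10, 67535475 to 67542188, plus strand, 5 merged exons), the zinc finger factor required for myelin gene expression, stood at 57.3, 93.3 and 59.7 CPM in Slit2fl/fl and at 61.8, 107 and 82.4 CPM in Slit2th. The ranges overlapped, with replicate 2 the highest in both groups. The means were 70.1 ± 20.1 and 83.7 ± 22.6 CPM (SD, n = 3 each). For Egr2 the log2 fold change was 0.26 (standard error 0.37, 95% interval -0.58 to 1.10), with an adjusted p of 0.787 by edgeR and an exact permutation p of 0.50. The Egr2 to Sox10 ratio of counts was 0.0821 to 0.211 in Slit2fl/fl and 0.0976 to 0.212 in Slit2th, again with overlap.

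NAB1 and NAB2 bind EGR factors and act as corepressors or coactivators at their targets. Nab1 (ENSMUSG00000002881, chromosome 1, 52457294 to 52500679, minus strand, 9 merged exons) stood at 40.0, 111 and 90.4 CPM in Slit2fl/fl and at 50.3, 108 and 83.0 CPM in Slit2th. Replicate 1 was the lowest and replicate 2 the highest library in both groups, and the means of 80.6 ± 36.7 and 80.5 ± 29.1 CPM (SD, n = 3 each) were nearly equal. For Nab1 the log2 fold change of 0.0058 had a standard error of 0.46 and a 95% interval of -1.04 to 1.05, which spans about 2-fold in either direction, and an adjusted p of 0.996 by edgeR.

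Nab2 (ENSMUSG00000025402, chromosome 10, 127660918 to 127668568, minus strand, 9 merged exons) was the regulator with the fewest reads. It had 105, 9 and 18 counts in Slit2fl/fl and 4, 3 and 10 counts in Slit2th, or 33.6, 5.83 and 10.2 CPM against 3.53, 1.43 and 5.64 CPM. Slit2fl/fl replicate 1 alone held most of the reads, Slit2th replicate 2 was at the floor of 3 counts, and Slit2th replicate 3 was just below Slit2fl/fl replicate 2. The means were 16.6 ± 14.9 and 3.54 ± 2.11 CPM (SD, n = 3 each). Its log2 fold change of -2.26 (standard error 0.78, 95% interval -4.02 to -0.49), or 4.77-fold lower, had an unadjusted p of 0.0180 by edgeR (adjusted p = 0.422, rank 509), and the exact permutation test gave 0.10. Without Slit2fl/fl replicate 1 it was -1.19 (unadjusted p = 0.115, adjusted p = 0.698), and leaving out both groups' replicate 1 gave -1.23 (unadjusted p = 0.106, adjusted p = 0.406 by edgeR). Leaving out Slit2th replicate 2 gave -1.83 with an unadjusted p of 0.0626 (adjusted p = 0.693). Nab1 reads outnumbered Nab2 reads by 1.19, 19.1 and 8.83 times in Slit2fl/fl and by 14.3, 75.7 and 14.7 times in Slit2th, and the groups overlapped in this ratio. Of the merged exon bases of Nab2, 1050 (35.7%) are shared with the antisense gene Gm16229, which is not in the table, and 151 and 40 bases are shared with Nemp1 and Stat6 on the other strand. Stat6 was itself lower in every Slit2th library (log2 fold change -0.56, adjusted p = 0.583 by edgeR), and Nemp1 had 2 to 5 counts a library.

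Yy1 (ENSMUSG00000021264, chromosome 12, 108792973 to 108820148, plus strand, 5 merged exons), a zinc finger factor of nearly all cells, stood at 189, 250.2 and 212 CPM in Slit2fl/fl and at 147, 234 and 216 CPM in Slit2th. Replicate 1 was the lowest library of both groups, and the ranges overlapped. The means were 217 ± 31.1 and 199 ± 45.7 CPM (SD, n = 3 each), and the log2 fold change was -0.12 (standard error 0.33, 95% interval -0.87 to 0.63, adjusted p = 0.891 by edgeR, exact permutation p = 0.70).

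Slit2fl/fl replicate 1 set much of the spread within its group. In log2 CPM it lay above the mean of Slit2fl/fl replicates 2 and 3 by 2.07 for Nab2, 1.11 for Tfap2a, 0.71 for Jun and 0.42 for Sox10, and below it for Zeb2 (-1.06), Sox2 (-1.25) and Nab1 (-1.33). For the 4 regulators with groups apart, this library thus deviated in the direction that widens the gap. Of the other 6, leaving it out gave log2 fold changes of 0.029 for Sox10, 0.36 for Jun, 0.13 for Egr2, -0.33 for Nab1, -0.20 for Pou3f1 and -0.22 for Yy1, so that the signs of Sox10 and Nab1 turned. Slit2th replicate 1 lay below its group by -1.02 for Tfap2a, -0.91 for Nab1 and -0.87 for Pou3f1, and close to it for Sox2 (-0.12), Zeb2 (0.0035) and Jun (0.055). Across 12146 genes the deviation of Slit2fl/fl replicate 1 from the mean of the libraries had a Spearman correlation of 0.541 with the GC content of the gene's transcripts, and the other libraries had -0.313 to -0.0197. These are correlations across genes, which are not independent replicates. Pou3f1 (63.9% GC), Sox10 (62.7%) and Nab2 (58.8%) were at percentiles 99.7, 99.4 and 94.5 of GC content among tested genes, while Zeb2 (46.2%) and Nab1 (47.2%) were at 31.8 and 37.6. With offsets corrected for GC content in each library, the log2 fold changes were -1.57 for Nab2, -1.33 for Tfap2a, 0.79 for Sox2 and 0.74 for Zeb2, so these 4 kept their signs. Those of Sox10 and Pou3f1 turned to 0.29 and 0.23, and that of Jun was 0.46, none with an unadjusted p under 0.05 by edgeR.

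**Figure D3:**
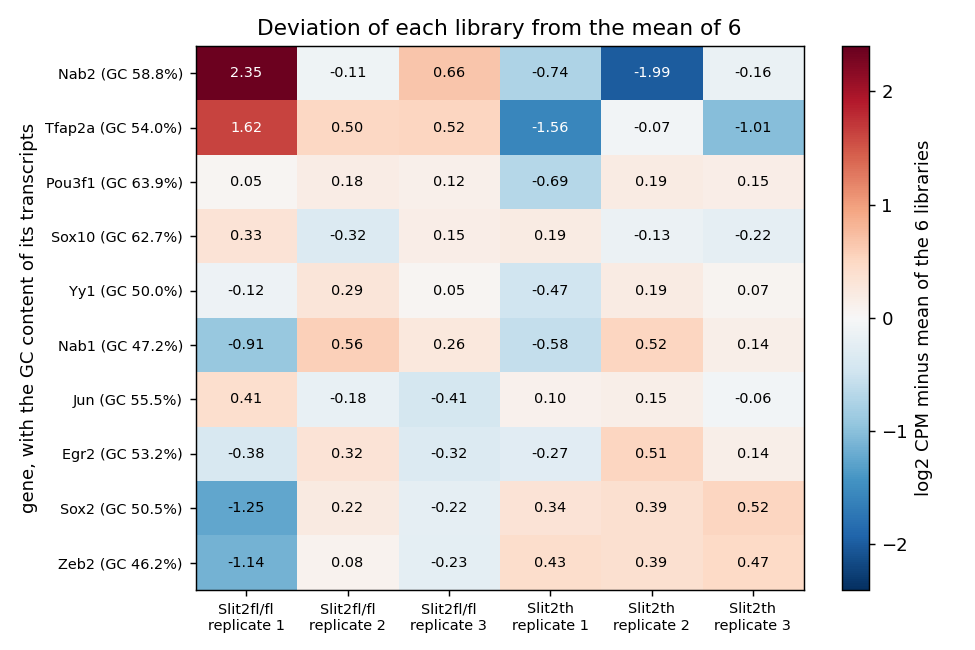
Log2 CPM of each regulator in each library minus its mean over the 6 libraries (blue below, red above, values printed in the cells), ordered by log2 fold change from the lowest at the top, with the GC content of the transcripts beside each name. Slit2fl/fl replicate 1 holds the highest values for Nab2 (2.35) and Tfap2a (1.62) and the lowest for Sox2 (-1.25) and Zeb2 (-1.14).

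**Figure D4:**
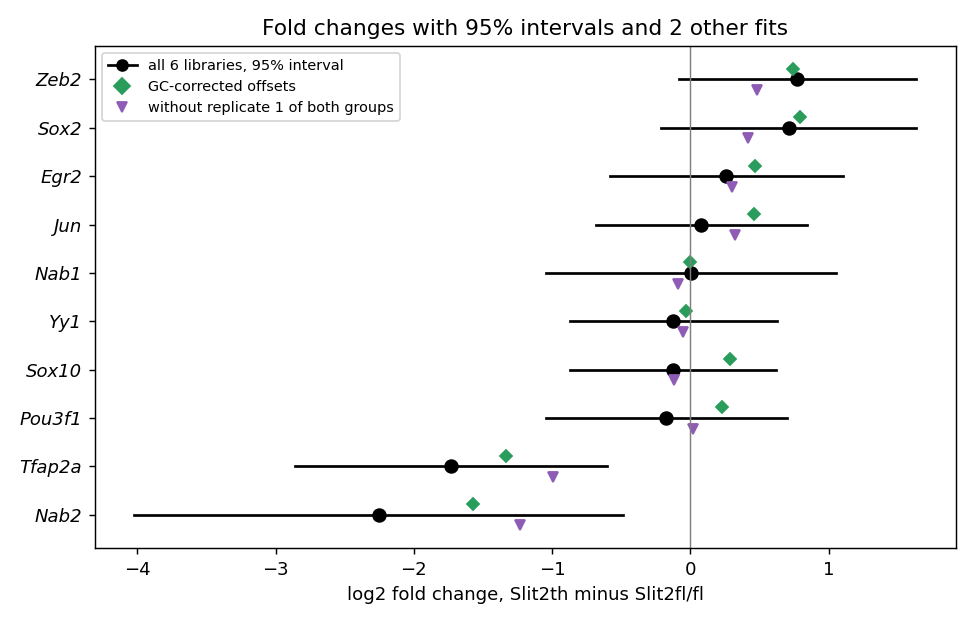
Log2 fold change of each regulator, Slit2th minus Slit2fl/fl, from all 6 libraries with its 95% interval (black), with GC-corrected offsets (green diamonds) and without replicate 1 of both groups (purple triangles). Nab2 and Tfap2a are negative and Sox2 and Zeb2 positive in all 3 fits, and the values without replicate 1 lie nearer to 0 for these 4 genes.

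The paralogues of the regulators, which share their DNA-binding domains, were mostly scarce: 13 were in the table, 4 of them (Sox1, Sox3, Egr4 and Tfap2b) were at 0 throughout, and 7 were tested, of which 4 were lower and 3 higher in Slit2th (median log2 fold change -0.25, but 0.033 without Slit2th replicate 1 and 0.12 with GC-corrected offsets). By level they were led by Egr1, Zeb1 and Jund. Egr1, an immediate early gene of the Egr2 family, stood at 422, 356 and 295 CPM in Slit2fl/fl and at 249, 306 and 349 CPM in Slit2th, with overlap. Sox9, a crest and glial factor of the Sox10 family, had the only unadjusted p under 0.05, at 16.01, 72.6 and 42.6 CPM against 67.1, 104 and 141 CPM (log2 fold change 1.26, standard error 0.55, unadjusted p = 0.0467, adjusted p = 0.462 by edgeR). Its groups overlapped, and it was lowest in Slit2fl/fl replicate 1, as Sox2 was. Without that library Sox9 was at 0.85 (adjusted p = 0.690), and without replicate 1 of both groups at 1.08 (adjusted p = 0.0509 by edgeR). Egr3, named because it alone of the paralogues had groups apart, stood at 50.0, 142 and 111 CPM and at 152, 158 and 143 CPM, and its log2 fold change went from 0.59 to 0.26 without Slit2fl/fl replicate 1. With 1 of 7 for each, the paralogues stood near the shares of all tested genes, 10.8% for the unadjusted p and 18.5% for groups apart.

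Of 39 further regulators of the lineage that were tested (Notch effectors, Id proteins, chromatin factors and others), 21 were lower and 18 higher in Slit2th (median log2 fold change -0.17). The unadjusted p was under 0.05 for 4 of 39, beside 10.8% of all tested genes, and the groups were apart for 11 of 39 (7 lower, 4 higher), beside 18.5%. Etv5, an ETS factor downstream of receptor kinases, had the lowest value (-2.18, standard error 0.70, adjusted p = 0.422 by edgeR). It had 42, 6 and 30 counts in Slit2fl/fl and 2, 8 and 3 in Slit2th, so Slit2th replicates 1 and 3 were at or under the floor. Id1, an inhibitor of basic helix-loop-helix factors, was at -1.42 (standard error 0.55, adjusted p = 0.435 by edgeR). Higher were Hdac2, a histone deacetylase that SOX10 recruits, at 1.13 (standard error 0.46, adjusted p = 0.449) and Sox6 at 0.74 (standard error 0.33, adjusted p = 0.462). Without replicate 1 of both groups the values were -1.90 for Etv5, -0.67 for Id1, 0.54 for Hdac2 and 0.68 for Sox6 (adjusted p from 0.145 for Sox6 to 0.434 for Id1 by edgeR). Hes1, the Notch target, was the most abundant by CPM together with Maf and Runx2. It stood at 347, 2072 and 1292 CPM in Slit2fl/fl and at 1625, 2922 and 2710 CPM in Slit2th, with overlap and with Slit2fl/fl replicate 1 far below the rest (log2 fold change 0.97, and 0.73 without replicate 1 of both groups).

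Genes known as targets of SOX10 and EGR2 did not move one way. Of 24 tested, 15 were lower and 9 higher in Slit2th (median log2 fold change -0.20, but 0.059 without Slit2fl/fl replicate 1 and 0.025 with GC-corrected offsets). At an unadjusted p under 0.05, 3 were lower and 1 higher, beside 10.8% of all tested genes, and the groups were apart for 3 in each direction, beside 18.5%. Prx, a periaxin gene of myelinating cells, was near the floor, with 3.84, 1.94 and 1.71 CPM in Slit2fl/fl, against 0, 0.477 and 0 CPM in Slit2th. It reached the CPM needed for testing only through the Slit2fl/fl libraries. Its place among the lower genes therefore follows in part from that filter, and without Slit2fl/fl replicate 1 it was not tested. Gjb1 (connexin 32 of myelin) had 18.9, 3.89 and 9.67 CPM against 2.65, 2.86 and 2.26 CPM, a log2 fold change of -2.06 (standard error 0.68, adjusted p = 0.422 by edgeR) that became -1.37 without Slit2fl/fl replicate 1 (adjusted p = 0.675). Mbp, a main protein of compact myelin, had 1051, 106 and 116 CPM against 88.3, 138 and 122 CPM, so its log2 fold change of -1.87 came with 1 Slit2fl/fl library far above 5 others, and without that library it was 0.065. Lgi4, a secreted factor of Schwann cells, was in contrast higher in every Slit2th library (log2 fold change 0.96, standard error 0.39, adjusted p = 0.447 by edgeR), and its value was 0.57 without replicate 1 of both groups (adjusted p = 0.274). S100b, a calcium-binding protein of glia, was at -0.59 (standard error 0.42, adjusted p = 0.586 by edgeR) with overlapping groups. Without replicate 1 of both groups S100b was at -1.22 in edgeR's test of the remaining 4 libraries (adjusted p = 0.00188). It was 1 of 377 genes, of 11473 tested, that passed the adjusted threshold there, where 0 passed with all 6 libraries.

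Genes of the repair and immature state, with which Sox2 and Jun are associated, gave no unadjusted p under 0.05 among 23 tested, beside 10.8% of all tested genes. Of the 23, 10 were lower and 13 higher (median log2 fold change 0.15). The median was 0.29 without Slit2fl/fl replicate 1 and turned to -0.038 without Slit2fl/fl replicate 3. The groups were apart for 1 lower and 3 higher, beside 18.5%. Without replicate 1 of both groups, Shh (0.93, adjusted p = 0.0244) and Fgf5 (-0.65, adjusted p = 0.0480) passed the adjusted threshold in edgeR's test, and they are named for that. In that test 377 of 11473 genes passed. Vim, the intermediate filament of immature glia and of many other cells, stood at 11358 to 18049 CPM in Slit2fl/fl and at 17745 to 19715 CPM in Slit2th. The AP-1 and immediate early genes, partners and companions of Jun, gave 0 of 21 at an unadjusted p under 0.05, beside 10.8% of all tested genes. Of the 21, 9 were lower and 12 higher (median log2 fold change 0.054). The median was 0.41 with GC-corrected offsets and turned to -0.097 without Slit2fl/fl replicate 3. The groups were apart for 3, all higher, beside 18.5%. Fos stood at 517, 604 and 668 CPM in Slit2fl/fl and at 645, 872 and 746 CPM in Slit2th, and Atf3, a stress-induced partner of JUN, at 2609, 989.7 and 899 CPM and at 1013, 911 and 776 CPM. The value of Atf3 was -0.74, and -0.066 without Slit2fl/fl replicate 1.

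The markers of cell types and of division stood as follows beside these regulators, and their part in the regulators' levels was not tested. The tested glia markers were lower for 10 and higher for 11 of 21 (median log2 fold change 0.15), and their sum overlapped between the groups. Proliferation markers were lower for 15 of 17 (median -0.88), with a sum of 563 to 583 CPM in Slit2fl/fl and 241 to 427 CPM in Slit2th. The sum was lowest in Slit2th replicate 1, the library that was also lowest for Tfap2a, Pou3f1 and Yy1. Sympathetic neuron markers were lower for 6 of 8 tested (median -0.66), but their median was 0.11 without Slit2fl/fl replicate 1 and 0.14 with no filter on low counts. Macrophage markers were higher for 12 of 13 tested (median 2.15), of 18 in the table. A gene could pass the filter through the 3 libraries of 1 group alone, so this count follows in part from the filter. Without replicate 1 of both groups Mrc1, C1qa, Ptprc and Itgam were not tested. The median was 1.62 with no filter on low counts and 1.19 with a CPM of at least 1 in all 6 libraries. It was 0.27 without Slit2th replicate 1 and 1.14 to 2.28 with other libraries left out. Fibroblast markers were higher for 17 of 22 (median 0.41) and endothelial and mural markers for 5 of 12 (median -0.16), a median that turned to 0.50 without Slit2fl/fl replicate 1 and to 0.33 without Slit2th replicate 2 and was -0.61 without Slit2th replicate 3. Of the melanocyte and the sensory neuron markers 1 each was tested, Mitf (0.0083, and 0.65 without replicate 1 of both groups), which is also a gene of the neural crest, and Ntrk2 (0.56).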

How the data were processed

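RNA-Seq counts of 6 libraries were used, 3 Slit2fl/fl and 3 Slit2th. The authors prepared TruSeq libraries, aligned the reads with HISAT2 and deposited whole-number read counts per gene, not normalized. The study's methods name mm10 as the genome, whereas the submitters' processing notes name GRCm39. The counter, its strand setting and its annotation are not given in the sources used here. Identifiers were joined to GENCODE M21 (GRCm38), in which 20166 of 20173 were found, for positions, exon lengths, overlaps and GC content.

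The fits used edgeR 4.0.16, limma 3.58.1 and DESeq2 1.42.0 under R 4.3.3. A gene was tested if its CPM reached 1 in 3 or more libraries. After TMM normalization the groups entered edgeR's quasi-likelihood test with no covariate, and p-values were adjusted by the Benjamini-Hochberg method over all 12152 genes tested. For single genes, log2 CPM was also permuted between the groups in a two-sided exact permutation test (prior count 0.5, 20 arrangements, smallest p 0.10). Non-overlap means that every library of one group lies beyond every library of the other. The 10 regulators and the gene lists were chosen with earlier results of these data known. All 10 regulators were named, and of each other list up to 3 genes by mean CPM and up to 4 by fold change among those with an unadjusted p under 0.05, while Slit2, Th and Snap25 checked the labels and overlapping genes were named beside a regulator. Of the genes this rule names, some are not reported here. The same replicate numbers occur in both groups. Their deviations from the group means correlated across genes at 0.256, 0.191 and 0.0583 for numbers 1, 2 and 3 (mean 0.168). Between different numbers the correlation was -0.266 to 0.205 (mean -0.0783). Since the value for number 3 was low, the numbers were not taken to pair the libraries, although a pairing of some of them is not excluded. The scripts were tested on simulated data. Total counts were 1255939 to 3155406 per library. The alternatives were other normalizations, tests and filters, a replicate block, GC-corrected offsets and libraries left out.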

Additional observations from a re-analysis of the deposited data

How the results depend on the processing

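The 10 log2 fold changes were recomputed under 18 alternatives, and no regulator passed an adjusted p of 0.05 in any of them. Tfap2a stayed negative (-2.50 to -0.99) with an unadjusted p under 0.05 in 18 of 18, Nab2 stayed negative (-3.07 to -1.19) with 15 of 18, and Zeb2 (0.48 to 1.05) and Sox2 (0.40 to 1.07) stayed positive with 6 and 2 of 18. Egr2 also kept its sign (0.054 to 0.53). With GC-corrected offsets the sign turned for Sox10 (0.29), Pou3f1 (0.23) and Nab1 (-0.0042), and with upper quartile normalization for Nab1 (-0.0041). With libraries left out, Sox10 ranged from -0.28 to 0.029, Nab1 from -0.33 to 0.32, Pou3f1 from -0.35 to 0.063, Jun from -0.15 to 0.36 and Yy1 from -0.24 to 0.057. The number of genes past the adjusted threshold was 31 by DESeq2, 16 by edgeR's exact test, 7 with no filter on low counts and 0 to 377 with libraries left out, 377 without replicate 1 of both groups. At an unadjusted p under 0.05 the leave-outs gave 653 to 1999 genes and 1 to 4 of the regulators (4 without Slit2fl/fl replicate 2, 1 without Slit2th replicate 2). With the replicate block, 0 genes passed after adjustment and 1614 did at an unadjusted p under 0.05, and the regulators among them were Tfap2a (-1.73), Nab2 (-1.98) and Zeb2 (0.85). The block together with a GC correction was not run, since the numbers were not taken to pair the libraries. The causes were not tested. The variation between libraries was 50.4% (the common coefficient that edgeR calls biological), and it may be technical, as said at the start. With this variation and 3 libraries a group, moderate differences of the regulators cannot be told from none. For Nab2 the 3 to 105 counts a library also limit the precision.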
